A study of Mus musculus with 12 samples.

Results

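MicroRNAs of 2 classes of mouse blood cells were compared: single-positive (SP) thymocytes, which are the last thymic stage of T cell development, and marrow progenitors, from which T cells descend. The SP class held the CD4SP library (CD4+ CD8- CD3hi CD90+ CD24lo) and the CD8SP library (CD4- CD8+ CD3hi CD90+ CD24lo), both sorted from thymus. The progenitor class held 3 libraries sorted from marrow. They were LSK (lineage-negative Sca+ cKit+), MPP (the CD135+ CD106+ part of that gate) and LMPP (its CD135+ CD106- part). These are 5 of the 12 libraries of the series. In all 5 most reads begin at base 3 of the mature miRNA, as in ProB, DN1 and DN2 and unlike the other 4 libraries. All cells came from C57BL/6 mice, with no treatment, transgene or animal age given in the labels. RNA of 19 to 24 nt was cut from a gel and sequenced with 1 library per population. The spread within a class is therefore that between different populations, and the LSK gate contains the MPP and LMPP gates. p-values measure the class difference against that spread only.

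A miRNA is a short RNA that guides Argonaute proteins to messenger RNAs, mostly by pairing of its seed, bases 2 to 8, and lowers their output. Several miRNAs are known to be tied to a blood cell stage. miR-10a and miR-196b lie in Hox gene clusters, and miR-126, miR-125b, miR-99a and miR-130a are known from stem and progenitor cells. miR-150 and miR-342 are known from mature lymphocytes, and miR-181a tunes T cell receptor signalling in thymocytes.

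The mature sequences of the miRNAs that separated the classes are given below from RefSeq (GRCm38.p6), 5′ to 3′, with the seed in capitals. The first set was lower in SP thymocytes and holds miRNAs of the progenitor list with the myeloid miR-223. miR-130b is added because it shares its seed with miR-130a.
miR-196b: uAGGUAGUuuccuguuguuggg
miR-10a: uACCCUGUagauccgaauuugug
miR-99a: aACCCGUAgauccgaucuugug
miR-125b-5p: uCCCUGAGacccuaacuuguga
miR-126-3p: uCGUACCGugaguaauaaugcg
miR-130a: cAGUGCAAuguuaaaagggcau
miR-130b: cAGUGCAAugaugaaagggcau
miR-221: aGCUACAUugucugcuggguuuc
miR-222: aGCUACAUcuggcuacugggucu
miR-223: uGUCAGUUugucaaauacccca
The second set was higher in SP thymocytes.
miR-142-3p: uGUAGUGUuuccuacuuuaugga
miR-142-5p: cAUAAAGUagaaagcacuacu
miR-342-3p: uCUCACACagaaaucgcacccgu
miR-16: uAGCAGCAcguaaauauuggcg
miR-15b: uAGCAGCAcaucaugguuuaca
miR-181a: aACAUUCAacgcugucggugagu
miR-132: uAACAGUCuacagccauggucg
miR-212: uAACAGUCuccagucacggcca
miR-182: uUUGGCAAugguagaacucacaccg
miR-96: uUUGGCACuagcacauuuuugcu
miR-183: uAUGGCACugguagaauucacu
The last set shows miRNAs that share a seed and moved in different directions or, for miR-103 and miR-107, to a different extent. miR-322 has the seed of miR-16 and miR-15b.
miR-322: cAGCAGCAauucauguuuugga
miR-103: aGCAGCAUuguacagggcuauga
miR-107: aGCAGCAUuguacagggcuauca
miR-20a: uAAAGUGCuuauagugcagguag
miR-20b: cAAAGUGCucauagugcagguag
miR-17: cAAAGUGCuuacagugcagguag
miR-106a: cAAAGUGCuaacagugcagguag
Because most reads begin at base 3, the first base of the seed is missing from them. The read of miR-10a, for example, was CCCTGTAGATCCGAATTTGT.

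Mature miRNA reads per library ran from 979219 in LMPP to 4497420 in CD4SP, with 96.3% to 98.0% of them from base 3. Levels are RPM, reads per 1000000 mature reads. A count of 0, taken as 3 counts, stands for up to 0.667 RPM in the deepest and 3.06 RPM in the shallowest of the 5 libraries. Intervals and such limits cover counting error only. Fewer cells that make a miRNA and less of it per cell cannot be told apart in these bulk samples. Fold changes are SP thymocytes over marrow progenitors.

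The 5 most abundant miRNAs of the SP class took 48.6% of mature reads in CD4SP and 40.1% in CD8SP, against 16.5%, 16.8% and 16.7% in LSK, MPP and LMPP. They were miR-16, miR-181a, miR-15b, let-7f and miR-142-5p. miR-16 alone held 24.6% and 20.1% of CD4SP and CD8SP reads, against 8.16%, 8.24% and 7.70% of LSK, MPP and LMPP reads. In the progenitor class the first places were held by miR-21, miR-20a, miR-16, let-7a and miR-24. RPM values share a fixed total, so the scaling matters to what is called lower. The median log2 fold change of all 262 miRNAs tested was -0.94 on the RPM scale and -0.04 with TMM factors. The mean TMM factors of the classes differ by 0.89 on the log2 scale.

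In the edgeR quasi-likelihood fit, 59 of 262 miRNAs (22.5%) rose in SP thymocytes and 116 (44.3%) fell at a Benjamini-Hochberg adjusted p below 0.05. With TMM factors 80 (30.5%) rose and 71 (27.1%) fell. All 59 and all 71 of these were called in the same direction with both scalings. Without CD4SP, 76 were called lower on the RPM scale. Of 174 miRNAs with at least 100 RPM and 10 reads in a library, 44 (25.3%) were higher in both SP libraries than in all 3 progenitor libraries, and 94 (54.0%) were lower. A gap of more than 2-fold between the nearest libraries of the classes, with its whole 95% interval, was found for 21 (12.1%) that were higher and 47 (27.0%) that were lower in SP thymocytes. Every one of these was also called by the fit, which used the same 5 libraries and is not separate evidence. With TMM factors, 45 had such a gap upward and 27 downward. At the edge of the rule, miR-191 had a gap of 2.11 times (2.08 to 2.14) and was inside it, and miR-103, at 2.02 times (1.98 to 2.05), was outside it.

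**Figure D1:**
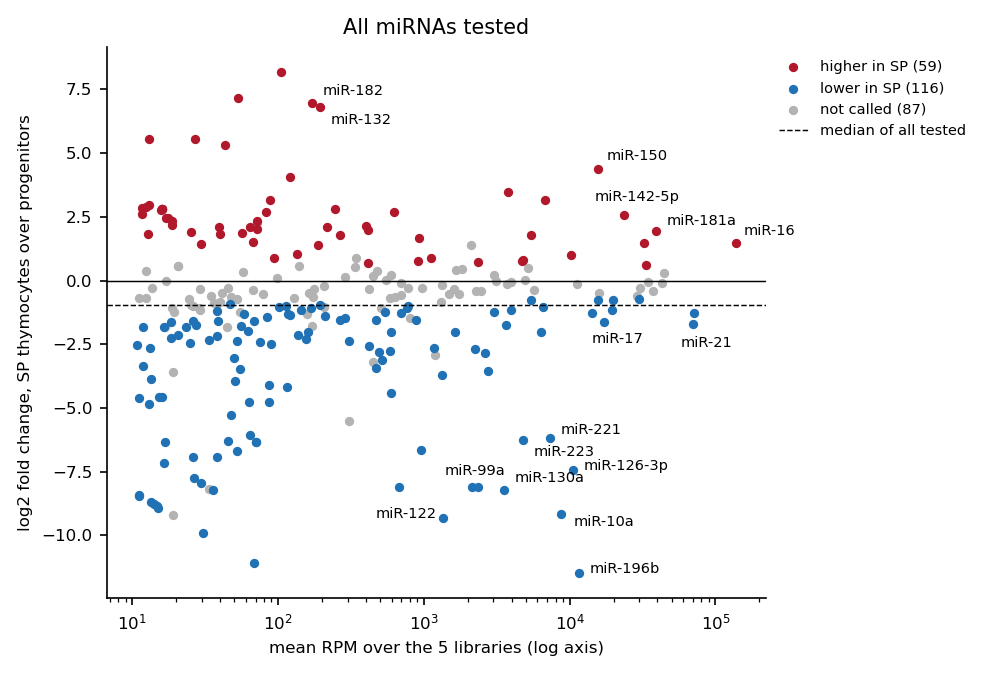
Log2 fold change of SP thymocytes over marrow progenitors (vertical axis, RPM scale) against mean RPM over the 5 libraries (horizontal log axis) for 262 miRNAs. Red points (59) were called higher and blue points (116) lower in the edgeR fit, and grey points were not called. The dashed line marks the median of -0.94.

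The miRNAs known from stem and progenitor cells were far lower in SP thymocytes. Their summed level was 832 and 1385 RPM in CD4SP and CD8SP, against 85978, 90496 and 83833 RPM in LSK, MPP and LMPP. All 15 of a progenitor list were called lower on the RPM scale, and 14 of them were called lower with TMM factors, the exception being let-7e. The list was chosen with earlier results of these data known, so these counts describe its members and do not test the list. The list's median log2 fold change was -7.76, or -7.41 with miR-196a, which had no read in either SP library, set at its bound. The median of all tested miRNAs was -0.94, and 44.3% of them were called lower on the RPM scale. miR-196b, which lies at the Hoxa9 gene (chr6:52230129-52230150, minus strand, GRCm38.p6, annotated in an exon), had 1.33 and 12.8 RPM in CD4SP and CD8SP cells, against 13938, 22326 and 21851 RPM in LSK, MPP and LMPP cells. Its gap was 1091 times (780.2 to 1575), with a log2 fold change of -11.49 ± 1.26 (SE) and an adjusted p of 0.00168 in edgeR's quasi-likelihood test. miR-10a, from chr11:96317186-96317208 (plus strand) in the Hoxb region, had 31.1 and 19.5 RPM in CD4SP and CD8SP cells, against 21754, 13071 and 8809 RPM in LSK, MPP and LMPP cells. Its gap was 283 times. Its paralog miR-10b, from an intron of Hoxd3 and Hoxd4, was rare everywhere. It had 0.222 and 1.5 RPM in CD4SP and CD8SP cells, against 59.5, 44.4 and 154 RPM in LSK, MPP and LMPP cells, and its log2 fold change was -6.71 ± 1.10 (edgeR adjusted p = 0.00392).

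miR-99a and miR-125b-5p had even levels within each class. miR-99a had 15.3 and 12.8 RPM in CD4SP and CD8SP cells, against 3870.1, 3934 and 3963 RPM in LSK, MPP and LMPP cells. miR-125b-5p had 13.1 and 12.4 RPM in CD4SP and CD8SP cells, against 3628, 3257 and 3756 RPM in LSK, MPP and LMPP cells. Both log2 fold changes were -8.11, with an SE of 0.33 and an edgeR adjusted p of 7.42e-05. A miR-125b hairpin and the miR-99a hairpin lie in introns of the long RNA gene Mir99ahg on chromosome 16, and a second miR-125b hairpin lies on chromosome 9. Another group of the same seeds, miR-99b, let-7e and miR-125a, lies in Spaca6 on chromosome 17. It fell less far. miR-125a-5p had 229 and 501 RPM in CD4SP and CD8SP cells, against 6728, 3572 and 2636 RPM in LSK, MPP and LMPP cells, a log2 fold change of -3.56 ± 0.63 (edgeR adjusted p = 0.00504). Its level was 17.5 and 40.4 times that of miR-125b-5p in CD4SP and CD8SP cells, against 1.85, 1.10 and 0.702 times in LSK, MPP and LMPP cells. miR-99b had a log2 fold change of -3.13 and let-7e of -2.66. The call of let-7e was lost with TMM factors (edgeR adjusted p = 0.0614) and without CD4SP (0.0928).

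miR-126-3p, from the gene Egfl7 and known to restrain cycling of stem cells and to act in endothelium, had 123 and 83.1 RPM in CD4SP and CD8SP cells, against 10607, 20340.3 and 21752 RPM in LSK, MPP and LMPP cells. Its other arm, miR-126-5p, had 5.34 and 2.63 RPM in CD4SP and CD8SP cells, against 592, 1108 and 1688 RPM in LSK, MPP and LMPP cells. The gaps were 86.6 and 111 times. Both arms were thus far lower in SP thymocytes. miR-221 and miR-222, which share a seed and a hairpin cluster at chrX:19146294-19146971 and are known to repress the receptor gene Kit, had gaps of 43.0 and 76.8 times. miR-221 had 117 and 218.77 RPM in CD4SP and CD8SP cells, against 9415, 13212 and 13923 RPM in LSK, MPP and LMPP cells. miR-130a had 23.5 and 15.4 RPM in CD4SP and CD8SP cells, against 9621, 5636 and 2370.3 RPM in LSK, MPP and LMPP cells, a log2 fold change of -8.23 ± 0.89 (edgeR adjusted p = 0.00168). Among the progenitors LSK was highest and LMPP lowest, as for miR-10a, miR-125a-5p and let-7e.

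**Figure D2:**
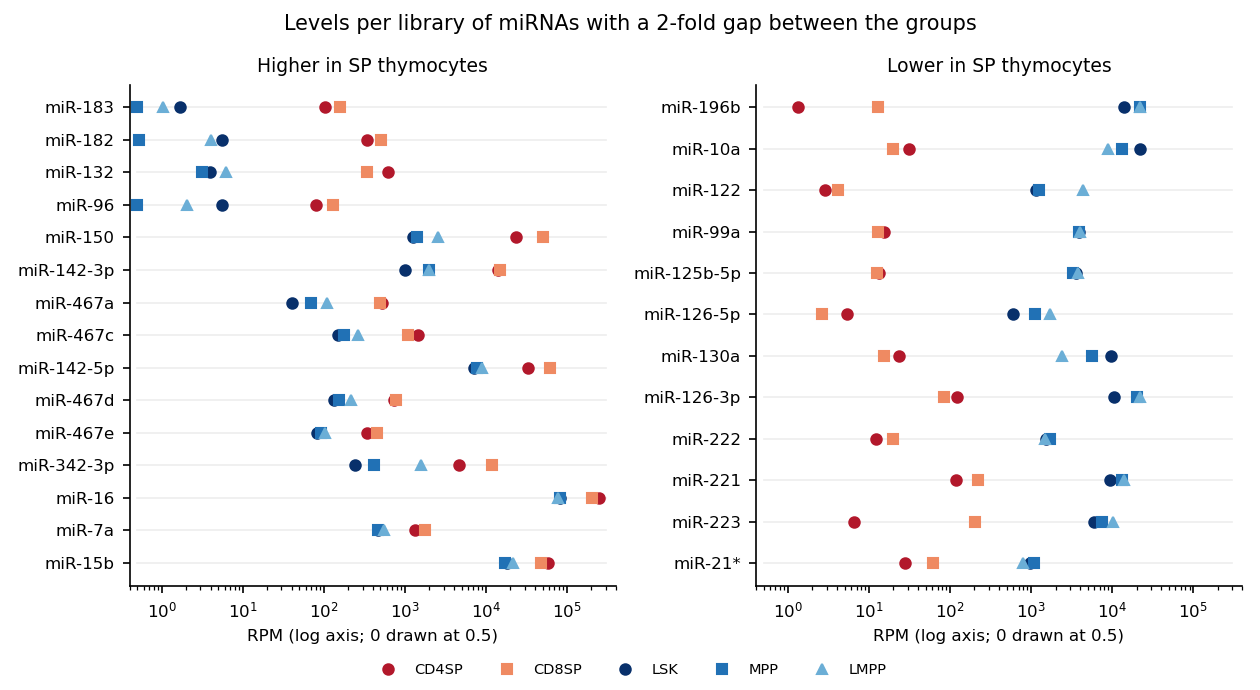
RPM per library (horizontal log axis) of miRNAs with a gap of more than 2-fold between the classes that the text describes, higher (left) and lower (right) in SP thymocytes. Red and orange marks are the CD4SP and CD8SP libraries, blue marks the 3 progenitor libraries. miR-196b had the largest gap of those drawn, at 1.33 and 12.8 RPM in the SP libraries and at least 13938 RPM in each progenitor library.

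Of the miRNAs known from mature lymphocytes, miR-150 and miR-342-3p rose. miR-150, known to repress Myb, rose to 23293 and 50003 RPM in CD4SP and CD8SP cells, against 1277, 1425 and 2549 RPM in LSK, MPP and LMPP cells. Its gap was 9.14 times (8.78 to 9.51) and its log2 fold change 4.39 ± 0.49 (SE; edgeR adjusted p = 0.00168). miR-342-3p, from an intron of Evl on chromosome 12, had 4695 and 11835 RPM in CD4SP and CD8SP cells, against 245, 420.2 and 1585 RPM in LSK, MPP and LMPP cells. Both were higher in CD8SP than in CD4SP, and both were highest in LMPP among the progenitors. The log2 fold change of miR-342-3p was 3.46 ± 0.90 (edgeR adjusted p = 0.0194), and the call was lost without CD8SP (0.0822) or without MPP (0.0555). In the list of 8 lymphocyte miRNAs these 2 rose, and 4 fell on the RPM scale, namely miR-146b and miR-29a, miR-29b and miR-29c. These shares are near those of all miRNAs tested, of which 22.5% rose and 44.3% fell. With TMM factors 3 rose and 1, miR-146b, fell. miR-146b had 68.7 and 67.8 RPM in CD4SP and CD8SP cells, against 1048, 693 and 469 RPM in LSK, MPP and LMPP cells. miR-29a and miR-29b had gaps of 1.98 and 1.22 times, and the sign of miR-29b was positive with TMM factors (log2 0.10).

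Both arms of miR-142, a miRNA restricted to blood cells, rose. miR-142-5p had 33363 and 60922 RPM in CD4SP and CD8SP cells, against 7215, 7744 and 9041 RPM in LSK, MPP and LMPP cells. miR-142-3p had 14135 and 14973 RPM in CD4SP and CD8SP cells, against 992, 1978 and 1957 RPM in LSK, MPP and LMPP cells. The log2 fold changes were 2.56 ± 0.30 and 3.15 ± 0.36 (SE), each with an edgeR adjusted p of 0.00168, and the gaps were 3.69 and 7.14 times. The progenitor libraries thus expressed this pan-blood marker at a lower share of their reads, and neither class lacked it.

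miR-16 and miR-15b come from a common precursor in an intron of Smc4 (chr3:69009772-69009996), and miR-16 also from an intron of Dleu2 beside miR-15a. They are known to repress Bcl2 and cyclins. miR-16 had 246177 and 200991 RPM in CD4SP and CD8SP cells, against 81647, 82358 and 76997 RPM in LSK, MPP and LMPP cells. miR-15b had 58409 and 47315 RPM in CD4SP and CD8SP cells, against 18166, 17197 and 21753 RPM in LSK, MPP and LMPP cells. miR-15a had 16429 and 12999.5 RPM in CD4SP and CD8SP cells, against 6449, 7216 and 8328 RPM in LSK, MPP and LMPP cells. All 3 rose, with log2 fold changes of 1.48, 1.47 and 1.01 and edgeR adjusted p of 0.0016, 0.00227 and 0.0106. The call of miR-15a was lost without CD4SP (0.0525) or without MPP (0.0532).

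miR-322 has the same seed but lies in another cluster on chromosome X, and it fell. It had 2139.7 and 2332 RPM in CD4SP and CD8SP cells, against 7998, 11629.8 and 7753 RPM in LSK, MPP and LMPP cells, a log2 fold change of -2.03 ± 0.29 (edgeR adjusted p = 0.00242). Relative to miR-16 in the same library, a ratio that no scaling changes, miR-322 stood at 0.869% and 1.16% in CD4SP and CD8SP, against 9.80%, 14.1% and 10.1% in LSK, MPP and LMPP. Of the 7 names placed only in that cluster (chrX:53047997-53054349), all fell on the RPM scale and 6 with TMM factors. The shares that fell among all miRNAs tested were 44.3% and 27.1%. miR-503, known to slow the cell cycle, had a log2 fold change of -2.02 and miR-351, with the seed of miR-125, one of -3.69. Summed over names, the seed family of miR-15, miR-16 and miR-322 rose (log2 fold change 1.34 ± 0.17, edgeR adjusted p = 0.00186). Of the seed families tested, 49 (23.8%) rose and 92 (44.7%) fell, and 57 fell with TMM factors. Without CD4SP, 32 rose and 53 fell.

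The miR-17 cluster and its paralogs, which promote lymphocyte growth, differed by cluster. The cluster at chr14:115043671-115044506 (Mir17hg) gave 7 tested names placed only there, and all 7 fell on the RPM scale. With TMM factors 3 of them fell, and 5 to 7 were called lower with 1 library left out. Among all miRNAs tested, 44.3% fell on the RPM scale and 27.1% with TMM factors. miR-20a had 32267 and 43832 RPM in CD4SP and CD8SP cells, against 83469.5, 97015 and 98362 RPM in LSK, MPP and LMPP cells. miR-17 had 6410.0 and 8911 RPM in CD4SP and CD8SP cells, against 20852, 24034 and 25849 RPM in LSK, MPP and LMPP cells. The log2 fold change of miR-17 was -1.62 ± 0.24, or -0.75 with TMM factors (edgeR adjusted p = 0.00277 and 0.0216), and that of miR-20a was -1.29 ± 0.20 and -0.42 (0.00337 and 0.113).

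Of the 5 tested names of the copy of this cluster on chromosome X (chrX:52741693-52742567), 3 rose on the RPM scale, namely miR-20b, miR-106a and miR-18b, and none was called lower. Among all miRNAs tested, 22.5% rose on the RPM scale. These names of the X-linked copy were chosen after their values were seen. miR-20b had 5444 and 7429.8 RPM in CD4SP and CD8SP cells, against 3489, 3679.6 and 3994 RPM in LSK, MPP and LMPP cells. miR-106a had 5374 and 7132 RPM in CD4SP and CD8SP cells, against 3282, 3649 and 4177 RPM in LSK, MPP and LMPP cells. Their log2 fold changes were 0.79 ± 0.24 and 0.76 ± 0.25 (edgeR adjusted p = 0.0288 and 0.0362), and were 1.66 and 1.64 with TMM factors. On the RPM scale these calls were kept without CD4SP and lost when any other library was left out, with adjusted p up to 0.116 for miR-20b and 0.141 for miR-106a. miR-18b was called without LMPP too (edgeR adjusted p = 0.0327), so that 0 of the 5 were called without CD8SP, without LSK or without MPP. The log2 fold changes of the 5 ran from -1.09 to 1.05.

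The ratio of each X-linked miRNA to its chromosome 14 partner in the same library shows the contrast without any scaling. miR-20b stood at 16.9% and 17.0% of miR-20a in CD4SP and CD8SP, against 4.18%, 3.79% and 4.06% in LSK, MPP and LMPP. miR-106a stood at 83.8% and 80.0% of miR-17, against 15.7%, 15.2% and 16.2%. miR-18b stood at 8.46% and 8.60% of miR-18a, against 1.79%, 1.95% and 1.83%. In each of these 3 pairs, which were chosen with their values known, the classes were far apart and the populations within a class were close. The log2 fold changes were 0.80, 0.76 and 1.22 when reads assigned to more than 1 name were left out. miR-25 and miR-93, from another copy on chromosome 5, fell on the RPM scale (log2 -0.76 and -0.72) but had positive signs with TMM factors (0.12 and 0.16).

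miR-130a and miR-130b also share a seed. miR-130b, in an intron of 2610318N02Rik on chromosome 16, stayed high. It had 3729 and 3947 RPM in CD4SP and CD8SP cells, against 6612, 6309.8 and 6524 RPM in LSK, MPP and LMPP cells. Its log2 fold change was -0.76 on the RPM scale (edgeR adjusted p = 0.021, up to 0.0956 with 1 library left out) and 0.12 with TMM factors. miR-130a was 0.629% and 0.390% of miR-130b in CD4SP and CD8SP, against 145.5%, 89.3% and 36.3% in LSK, MPP and LMPP. miR-107 and miR-103, from introns of the pantothenate kinase genes Pank1, Pank2 and Pank3, differ at their 3′ end. miR-107 fell (log2 -2.84 ± 0.32, edgeR adjusted p = 0.00168). It was 4.92% and 5.22% of miR-103 in CD4SP and CD8SP, against 18.4%, 15.6% and 13.9% in LSK, MPP and LMPP. Reads that end before the base that differs cannot tell miR-107 from miR-103. The mean last base of miR-107 reads was 21.6 and 21.5 in CD4SP and CD8SP, against 21.8, 21.9 and 21.8 in LSK, MPP and LMPP. For miR-103 it was 22.9 and 22.9, against 22.8, 22.8 and 22.8. The part of read length and read assignment in the fall of miR-107 and in this ratio was not tested. miR-103 had a log2 fold change of -1.17, which was called on the RPM scale and not with TMM factors (-0.30).

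miR-181a showed a difference that depends on the library. It had 97999 and 42560.4 RPM in CD4SP and CD8SP cells, against 9771, 18727 and 26774 RPM in LSK, MPP and LMPP cells. Its log2 fold change was 1.93 ± 0.53 (edgeR adjusted p = 0.0218), the gap was only 1.59 times, and without CD4SP the value was 1.21 and no longer called (adjusted p = 0.134). The call was lost without MPP too (edgeR adjusted p = 0.0513). Other members with the same seed differed from it. miR-181d had 1196 and 1869 RPM in CD4SP and CD8SP cells, against 3806, 5469 and 5927 RPM in LSK, MPP and LMPP cells, so it fell (log2 -1.73 ± 0.35, edgeR adjusted p = 0.00721). miR-181d was 1.22% and 4.39% of miR-181a in CD4SP and CD8SP, against 39.0%, 29.2% and 22.1% in LSK, MPP and LMPP. miR-181b was not called, with a log2 fold change of 0.016.

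The miRNAs of 2 small clusters were nearly absent from the progenitor libraries. miR-182, miR-96 and miR-183 come from chr6:30165918-30169737 (minus strand), and miR-182 is known to be induced by interleukin 2 in helper T cells. miR-182 had 339 and 504 RPM in CD4SP and CD8SP cells, against 5.61, 0.526 and 4.08 RPM in LSK, MPP and LMPP cells. miR-183 had 104 and 157 RPM in CD4SP and CD8SP cells, against 1.68, 0 and 1.02 RPM in LSK, MPP and LMPP cells. miR-96 had 80.0 and 129.7 RPM in CD4SP and CD8SP cells, against 5.61, 0 and 2.04 RPM in LSK, MPP and LMPP cells. All 3 rose, with log2 fold changes of 6.97, 7.15 and 5.32 and edgeR adjusted p of 0.00169, 0.00168 and 0.00721. miR-132 and miR-212 share a seed and the cluster at chr11:75173388-75173747, and are known to be induced by the factor CREB. miR-132 had 621 and 337 RPM in CD4SP and CD8SP cells, against 3.93, 3.16 and 6.13 RPM in LSK, MPP and LMPP cells. miR-212 had 42.2 and 21.4 RPM in CD4SP and CD8SP cells, against 1.12, 0.526 and 0 RPM in LSK, MPP and LMPP cells. Here CD4SP was the higher SP library, whereas for the miR-183 cluster it was CD8SP. The gap of miR-132 was 55.0 times (25.2 to 150.3). The names of both clusters passed the filter on mean RPM only through the SP libraries. Only a higher call was therefore open to them, and no conclusion is drawn from their shared direction. Among all miRNAs tested, 22.5% were called higher on the RPM scale. Without CD4SP, miR-212 was not tested.

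miR-21, which is induced in many cells by activation and growth, went the other way from miR-132 in the activation list. It had 33005 and 26776 RPM in CD4SP and CD8SP cells, against 103041, 99823 and 87653 RPM in LSK, MPP and LMPP cells. Its log2 fold change was -1.70 ± 0.18 (edgeR adjusted p = 0.00168), and with TMM factors it was -0.81 and just missed the threshold (0.0508). Its star arm, miR-21*, fell further, with 27.6 and 62.4 RPM in CD4SP and CD8SP cells, against 982, 1094 and 803 RPM in LSK, MPP and LMPP cells. miR-155, the fifth member, was not called (log2 -0.38, or 0.50 with TMM factors).

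**Figure D3:**
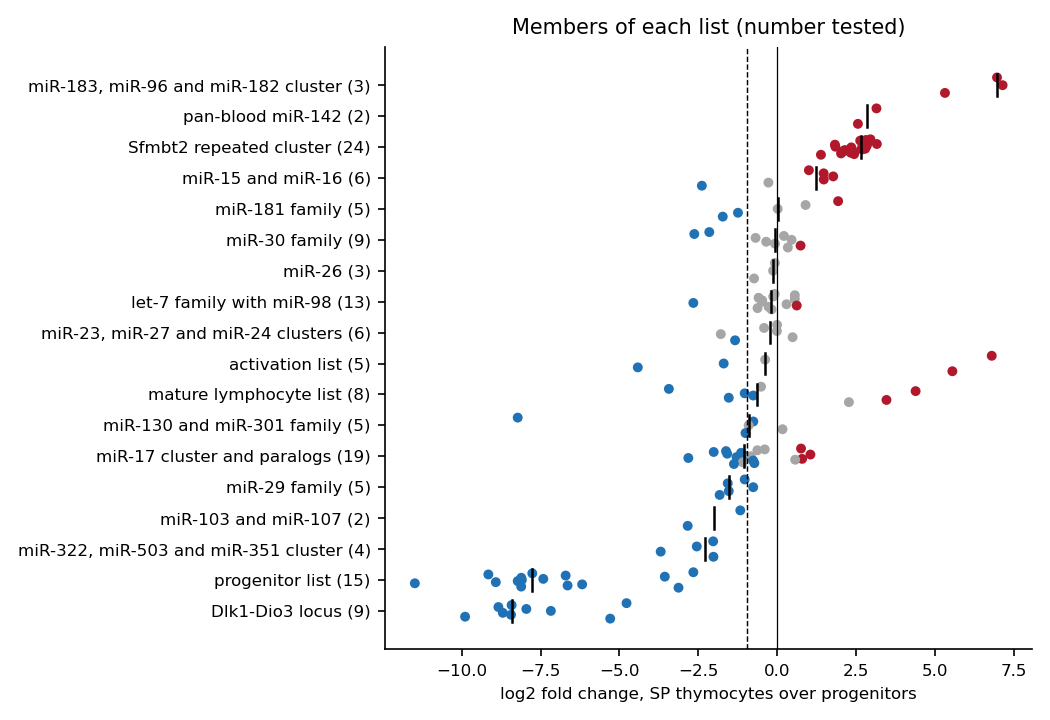
Log2 fold change of each tested member of each list (horizontal axis, RPM scale), with the number tested in parentheses. Red points were called higher in SP thymocytes, blue points lower and grey points not called. Black bars are list medians, the dashed line is the median of all miRNAs tested (-0.94).

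Abundant families of general function were counted next. Among all 262 miRNAs tested, 22.5% rose and 44.3% fell on the RPM scale. With TMM factors the shares were 30.5% and 27.1%. Of 13 let-7 names tested, 1 rose (let-7g, log2 0.62 ± 0.16, edgeR adjusted p = 0.0188, up to 0.0871 with 1 library left out) and 1 fell (let-7e). let-7f had 50144 and 49623 RPM in CD4SP and CD8SP cells, against 48068, 41551 and 32296 RPM in LSK, MPP and LMPP cells. Of the 3 miR-26 names none was called. Of 6 names of the clusters that hold miR-24, miR-27 and miR-23, 1 fell, but 4 fell without CD8SP and 0 without CD4SP or without MPP. Of 9 miR-30 names 1 rose and 2 fell, and with any 1 library left out none was called higher. With TMM factors 5 let-7 names and 5 miR-30 names rose. All 5 names of the miR-29 family, known to repress DNA methyltransferases and T-bet, fell on the RPM scale. Of these, 2 were called without CD4SP or without MPP, and none with TMM factors.

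In 2 lists named after loci with many hairpins, the members that were called moved one way. A limit is that low-level names passed the filter only through the class where they were high. Among all 262 miRNAs tested, 22.5% were called higher and 44.3% lower. Of the Dlk1-Dio3 locus on chromosome 12, an imprinted region active in stem cells, 45 names had a read in the 5 libraries and 9 passed the filter, all 9 of them called lower (5 of 5 that passed without LMPP). The summed level of the 45 names was 8.67 and 4.89 RPM in CD4SP and CD8SP, against 659.6, 160.4 and 592.3 RPM in LSK, MPP and LMPP. MPP was the lowest progenitor library here. Of the list for the repeated cluster in Sfmbt2, 48 names had a read and 24 passed the filter, all 24 called higher. This list was made by name and not by position. Its member miR-466k was matched to a hairpin on chromosome 3 (chr3:85467377-85467498), outside Sfmbt2. These names share sequences, so they are not separate measurements. The highest, miR-467c, had 1449.6 and 1102 RPM in CD4SP and CD8SP cells, against 148, 179 and 264 RPM in LSK, MPP and LMPP cells.

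Markers of other cell types differed between the libraries. The shares over all miRNAs tested, for comparison, were 22.5% called higher and 44.3% called lower on the RPM scale. The erythroid miRNAs (miR-451, miR-144 and miR-486) summed to 44.9 and 620.6 RPM in CD4SP and CD8SP, against 1661, 1466 and 4655 RPM in LSK, MPP and LMPP, and none of the 3 was called, but all 3 fell when CD8SP was left out. Of 6 mesenchymal miRNAs, 4 were tested and 4 fell (2 without CD4SP or without CD8SP), with sums of 7.78 and 9.77 RPM in CD4SP and CD8SP, against 232.8, 184.1 and 798.6 RPM in LSK, MPP and LMPP. The liver miRNA miR-122 had 2.89 and 4.13 RPM in CD4SP and CD8SP cells, against 1163, 1234 and 4313 RPM in LSK, MPP and LMPP cells. LMPP was the highest library for each of these. The other tested miRNA of the liver list, miR-194, was called higher in SP thymocytes on the RPM scale. It had 533 and 533 RPM in CD4SP and CD8SP cells, against 341, 302 and 359 RPM in LSK, MPP and LMPP cells. The epithelial list had sums of 249.7 and 407.5 RPM, against 253.0, 221.4 and 414.6 RPM, but its members went both ways. Of 6 tested, 2 were called higher (miR-141 and miR-200c) and 1 lower (miR-203). With 1 library left out, the 2 higher calls were kept only without LMPP. Muscle miRNAs were at 0 in both SP libraries and summed to 11.2, 13.1 and 111.8 RPM in the progenitors, and neural miRNAs summed to 8.0 and 7.14 RPM in CD4SP and CD8SP, against 44.6, 14.7 and 11.7 RPM in LSK, MPP and LMPP. The part of other cells in the results above was not tested.

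The myeloid miRNA miR-223 had 6.45 and 202.98 RPM in CD4SP and CD8SP cells, against 5889.7, 7461 and 10296 RPM in LSK, MPP and LMPP cells. The SP libraries thus stood far apart from each other, and its log2 fold change was -6.24 ± 1.58 (edgeR adjusted p = 0.018), or -10.2 without CD8SP. CD8SP was also above CD4SP for miR-451 and miR-486. The B-lineage list, miR-34a and miR-139-5p, was chosen with earlier results of these data known and summed to 53908 RPM in ProB. Its 2 members differed from each other, since miR-34a fell (log2 -2.37 ± 0.26, edgeR adjusted p = 0.00168) and miR-139-5p was not called (log2 -1.46 ± 0.57, 0.0641). miR-139-5p was called lower without CD8SP (edgeR adjusted p = 0.0423) or without MPP (0.0495).

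Levels in DN1 and DN2, early thymic stages, and in ProB, a B-lineage precursor that is not on the path to SP thymocytes, were set beside the ranges of the classes. "Between" here refers to the level only. Of the 8 miRNAs with at least 1000 RPM and a gap upward, the levels of DN2 and of ProB each lay between the classes for 7. In DN1, miR-150, miR-142-5p and miR-342-3p were within the SP range, 3 lay between and 2 were within the progenitor range. miR-150 had 2108 RPM in ProB, 46468 RPM in DN1 and 3099 RPM in DN2. DN2 was thus lower than the DN1 stage before it and just above the progenitors. Of the 25 with a gap downward, DN1 lay between the classes for 19, and DN2 and ProB for 17 each. The miRNAs counted here were chosen for an empty interval of more than 2-fold between the classes. No share over all miRNAs is given, so no conclusion is drawn from these counts. miR-223 was above every progenitor library in DN1, at 17609 RPM, and at 869 RPM in DN2. miR-10a had 1068 RPM in ProB, 878 RPM in DN1 and 117 RPM in DN2. miR-182 had 1.17 RPM in ProB, 88.4 RPM in DN1 and 27.4 RPM in DN2.

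**Figure D4:**
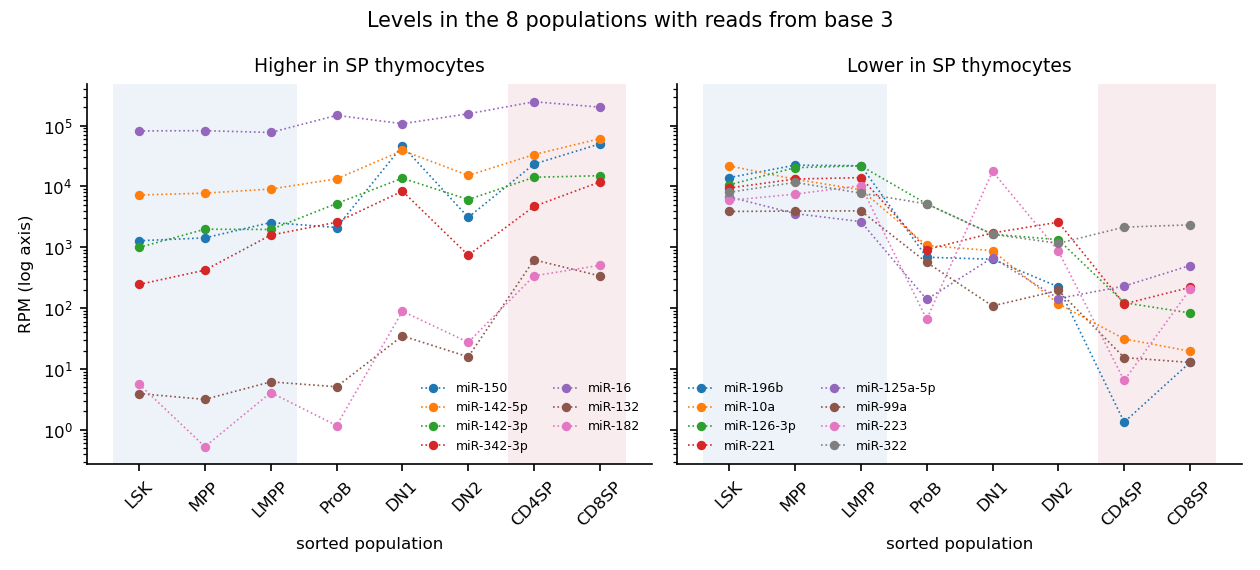
RPM (vertical log axis) in the 8 populations with reads from base 3, with 1 library each, for miRNAs higher (left) and lower (right) in SP thymocytes. Blue shading marks the progenitors and red shading the SP thymocytes. miR-150 in DN1 (46468 RPM) lies within the SP range, and miR-223 in DN1 (17609 RPM) lies above all progenitors.

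The 2 arms of a hairpin did not always keep their ratio. Hairpins were taken if an arm named with a star had at least 100 RPM in a library. The 2 arms together also needed at least 100 reads in each library. For the 19 such hairpins, the star share was lower in both SP libraries than in all 3 progenitor libraries for 11. The classes overlapped for the other 8. A star arm could pass this limit only through the class where it was high, so no conclusion is drawn from the direction of these counts. miR-21* held 0.0835% and 0.232% of the reads of both miR-21 arms in CD4SP and CD8SP, against 0.944%, 1.08% and 0.907% in LSK, MPP and LMPP. miR-20a* held 0.282% and 0.278%, against 0.760%, 0.941% and 0.699%. miR-27a* held 1.28% and 2.34%, against 5.39%, 7.82% and 7.98%. miR-150*, whose main arm rose, was among the 11, at 0.663% and 0.788%, against 1.09%, 1.10% and 0.795%. Its CD8SP and LMPP shares were nearly equal, and miR-150* had only 20.4 RPM in LMPP. With 1 library per population these shares have no test.

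**Figure D5:**
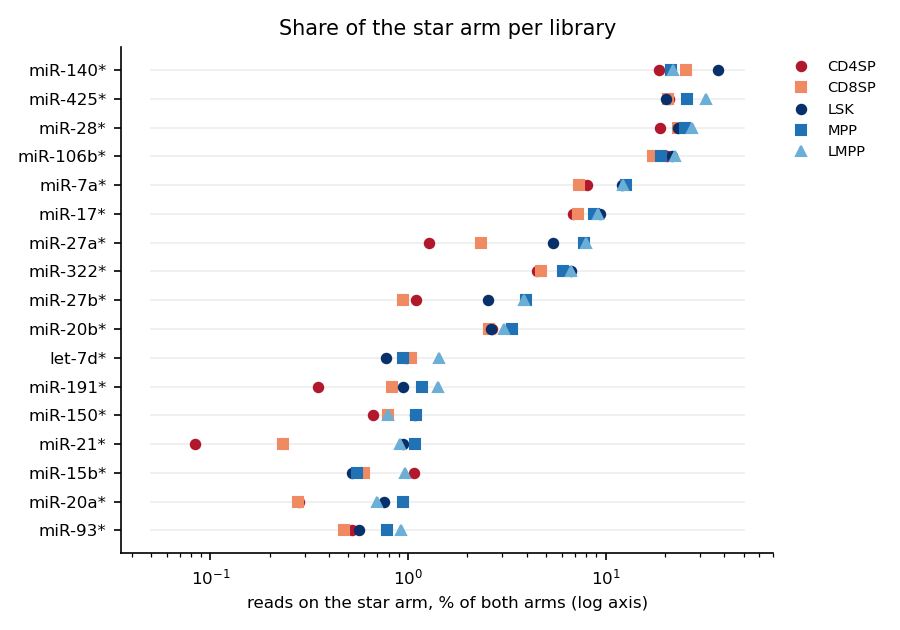
Reads on the star arm as a percentage of both arms (horizontal log axis) per library, with hairpins down the axis. miR-33* and miR-378*, whose star-named arm held most reads, are not drawn. The CD4SP and CD8SP marks lie left of the blue progenitor marks for miR-21*, miR-27a*, miR-27b* and miR-20a*.

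The 3′ ends of the reads differed between the classes in both directions. For 66 miRNAs with at least 500 reads in each library, the mean last base was earlier in both SP libraries than in all progenitor libraries for 18 and later for 11, the classes overlapping for the other 37, with a median difference of -0.00925 nt. miR-18a had the widest shift, with a mean last base of 21.6 and 21.7 in CD4SP and CD8SP, against 22.3, 22.2 and 22.2 in LSK, MPP and LMPP. miR-155 went the other way, at 22.6 and 22.5, against 22.2, 22.3 and 22.4.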

How the data were processed

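Small RNA of sorted C57BL/6 cells was sequenced once per population. Adaptors were joined to gel-cut RNA of 19 to 24 nt carrying 5′ phosphate and 3′ hydroxyl ends, per the labels' protocols. The deposited tables give a raw count of reads for each distinct sequence and name its miRNA. No aligner, miRNA release or mismatch limit is given in the sources used here. The tables of CD8SP hold each other's kind of names and were taken by the names they hold. A hairpin table of CD4SP was not used here.

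Reads were added up by miRNA name, with sequences on several names (0.239% to 0.563% of reads) split equally and sums rounded for the fit. edgeR 4.0.16 (R 4.3.3), quasi-likelihood with robust fitting, used library totals as offsets and names with a mean of at least 10 RPM. Gaps are ratios of the nearest libraries of the classes with exact 95% conditional binomial intervals. Named miRNAs were the 12 largest gaps each way with at least 1000 RPM, the 5 most abundant per class and up to 4 members of each list; others were chosen after their values were seen. RefSeq sequences matched 208 of 262 names tested. The comparison, members and lists were chosen with earlier results of these data known. Alternatives were TMM factors, DESeq2 1.42.0 and its size factors, a total without miR-16, miR-20a and miR-21, other filters and folds, shared or single-read sequences left out, thinning to 979219 reads, both tables added, and each library left out. Python 3.11.15 with scipy 1.17.1 was used.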

Additional observations from a re-analysis of the deposited data

Results flagged for a closer look

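The second tables, which hold sequences assigned to hairpins and not to mature miRNAs, were in no comparison above. In them, 6 miRNAs had at least 1000 RPM in CD8SP and stood above every progenitor library with a gap of more than 2-fold. They were picked by a high level in CD8SP, so they give no share over all hairpin names and no count of lower ones. Of these, miR-669a and miR-669o belong to the Sfmbt2 list, whose names share sequences, so they are not separate measurements. The ratios of CD8SP over the highest progenitor library were 8.74 for miR-669o, 8.46 for miR-669a, 7.88 for miR-142, 4.40 for miR-342, 2.53 for miR-16 and 2.15 for miR-27a. miR-142 had 6600.4 RPM in CD8SP, against 590.3, 767.3 and 837.3 RPM in LSK, MPP and LMPP. miR-27a had 1676 RPM in CD8SP, against 600.4, 612.5 and 779.4 RPM. For miR-669a, 96.9% of the CD8SP reads of both tables were in the hairpin table, and for miR-142 8.75%. CD8SP is the only SP library with such a table here.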

How the results depend on the processing

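The counts depended on scaling, on the filter and on CD4SP. With a filter of 100 RPM, 28 miRNAs were called higher and 56 lower in SP thymocytes. With TMM factors 71 were called lower. Leaving out 1 library in turn gave 40 to 55 higher and 76 to 115 lower, the lowest count of lower calls coming without CD4SP. Upward 2-fold gaps numbered 45 of 172 with TMM factors and 42 of 172 with median-of-ratios size factors. Upward gaps numbered 9 of 174 at 4-fold, 8 of 88 at 1000 RPM and 21 to 29 with a library left out. Downward gaps numbered 27 of 172 with TMM factors, 30 of 172 with size factors and 28 of 174 at 4-fold. They numbered 75 of 298 at 10 RPM, 25 of 88 at 1000 RPM and 42 to 69 with a library left out. Seed families called higher ranged from 32 to 48 and lower from 53 to 91 with a library left out, both lowest without CD4SP, and 57 were lower with TMM factors. Fewer miRNAs pass a stricter filter or fold by construction. For the other changes the cause was not tested. No paired analysis was possible because the labels give no replicate numbers.

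Of 87 named miRNAs tested, 16 changed sign under some alternative, and 59 kept direction and call with TMM factors. With TMM factors, size factors and DESeq2, the log2 fold change became 0.78, 0.70 and 0.70 for let-7a, 0.60, 0.49 and 0.49 for let-7i, 0.12, 0.033 and 0.033 for miR-130b, 0.50, 0.42 and 0.42 for miR-155, 0.41, 0.29 and 0.29 for miR-24, 0.12, 0.025 and 0.025 for miR-25, 0.80, 0.73 and 0.73 for miR-26a, 0.72, 0.63 and 0.63 for miR-26b, 0.17, 0.084 and 0.089 for miR-26b*, 0.80, 0.66 and 0.66 for miR-27a, 0.83, 0.75 and 0.75 for miR-30d, 0.14, 0.0077 and 0.0079 for miR-429 and 0.16, 0.056 and 0.056 for miR-93. miR-29b turned to 0.10 with TMM factors. miR-27a turned to 0.018 when thinned and 0.0087 without the 3 most abundant, and miR-181b to -0.011 when thinned. With 1 library left out the values ran from -0.22 to 0.095 for let-7a, -0.77 to 0.52 for miR-181b, -1.28 to 0.12 for miR-24, -0.27 to 0.15 for miR-26a, -0.31 to 0.12 for miR-26b, -1.55 to 0.72 for miR-27a, -0.090 to 0.46 for miR-30b and -0.22 to 0.062 for miR-30d. The shallowest library, LMPP, sets the depth limit for miRNAs under 3.06 RPM.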

Other observations

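A few further miRNAs, chosen after their values were seen, also separated the classes. miR-211, from an intron of Trpm1 on chromosome 7, had 58.5 and 459 RPM in CD4SP and CD8SP cells, against 1.68, 0.526 and 0 RPM in LSK, MPP and LMPP cells. It rose (log2 8.18 ± 1.26, edgeR adjusted p = 0.00334), with CD8SP far above CD4SP. miR-149, from an intron of Gpc1 on chromosome 1, had 673 and 830.3 RPM in CD4SP and CD8SP cells, against 229, 178 and 158 RPM in LSK, MPP and LMPP cells, and rose (log2 1.99 ± 0.28, 0.00242). miR-22 had 12090.5 and 6934 RPM in CD4SP and CD8SP cells, against 2256, 1418 and 4594 RPM in LSK, MPP and LMPP cells. It rose as well (log2 1.79 ± 0.55, 0.0318), but the call was lost without CD4SP (0.161), LSK (0.0839) or MPP (0.0555).

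On the other side, miR-335-5p, from an intron of the imprinted gene Mest on chromosome 6, had 1.56 and 0 RPM in CD4SP and CD8SP cells, against 37.0, 47.3 and 139 RPM in LSK, MPP and LMPP cells. It fell (log2 -6.29 ± 1.26, edgeR adjusted p = 0.00748), or -10.1 without CD4SP, where the SP class had no read. miR-574-5p had 5.0 and 11.7 RPM in CD4SP and CD8SP cells, against 149, 131 and 138 RPM in LSK, MPP and LMPP cells, and miR-676 had 1.56 and 1.5 RPM in CD4SP and CD8SP cells, against 165, 84.1 and 70.5 RPM in LSK, MPP and LMPP cells. Both fell (log2 -4.09 and -6.07, edgeR adjusted p = 0.00189 and 0.00168). miR-450a-5p, beside miR-322 on chromosome X, fell too, with 408 and 636 RPM in CD4SP and CD8SP cells, against 3792, 3762 and 2559 RPM in LSK, MPP and LMPP cells.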
